A study of Mus musculus with 14 samples.

Results

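The accessible chromatin described here lay around 10 mouse genes of the basement membrane: the laminin genes Lama1, Lama5, Lamb1 and Lamc1, the collagen IV genes Col4a1 and Col4a2, the nidogen genes Nid1 and Nid2, the perlecan gene Hspg2, and Sparc. Merging every peak of the 14 ATAC-seq libraries with any it overlapped, by 1 bp or more, gave 124598 regions on GRCm38. Of these, 84402 had a protein-coding transcription start site (TSS) of GENCODE M21 within 50 kb, and for 137 of them the nearest such gene was 1 of the 10.

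ATAC-seq, in which a transposase inserts adapters into open DNA, was run on KH2 mouse embryonic stem cells of strain C57BL/6 that carried, in every group, a TRE:GATA6-DSREd2 transgene from which doxycycline (Dox) switches GATA6 on. Libraries of 50000 cells were made in pairs at 0, 2, 4, 8, 16, 24 and 48 h, giving 14 libraries with 55588 to 65073 peaks. The 0 h cells were grown in serum-free 2i medium with LIF and no Dox, and all induced cells were in serum medium with LIF and Dox at 1 µg/mL. For collection at 16, 24 and 48 h, Dox was given for 12 h and then withdrawn. The effect of GATA6 and that of the medium change cannot be told apart, since no library came from cells that were in serum without ever receiving Dox. All libraries came from 1 cell line, and the labels do not say whether a pair came from separate cultures. The study's reporting form states that replicates were run independently, without detail for these libraries, so the p-values below measure the spread between these libraries.

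Basement membranes are thin sheets of extracellular matrix built on 2 networks, a laminin network that cells bind through integrins and dystroglycan, and a collagen IV network that gives the sheet its strength. Nidogens and perlecan link the networks, and SPARC binds collagen IV outside the cell. The primitive endoderm, the lineage that GATA6 specifies in the blastocyst, lays down the first basement membranes of the embryo, and its parietal derivative secretes the thick Reichert's membrane. Laminin is a trimer of an α, a β and a γ chain, and the Lama1, Lamb1 and Lamc1 products form the trimer made earliest in the embryo.

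A region was called gained at a time point if both libraries of that time had a peak there and neither 0 h library did. It was lost where the 2 time points were the other way round, and shared where all 4 libraries had a peak. Sequences are shown for 6 of the regions gained at 48 h, 1 for each gene with such a region called in both libraries by 8 h. The earliest was taken, and where several opened together, that called in most libraries and then that with the highest scores at 48 h. Each is the 200 bp around the region's centre on the plus strand of GRCm38, with matches to any form of the GATA-factor motif on either strand in capitals. The forms are AGATAA and AGATAG, and likewise TGATAA and TGATAG with the first letter changed. The window of Lamc1 is at chr1:153358728-153358927 between genes, that of Col4a1 at chr8:11317480-11317679 in an intron of the neighbouring Col4a2, that of Col4a2 at chr8:11266253-11266452 in an intron of Col4a1, that of Sparc at chr11:55421269-55421468 in an intron of Sparc, that of Lamb1 at chr12:31270733-31270932 in an intron of Lamb1, and that of Nid2 at chr14:19737695-19737894 between genes.
Lamc1 26.0 kb upstream: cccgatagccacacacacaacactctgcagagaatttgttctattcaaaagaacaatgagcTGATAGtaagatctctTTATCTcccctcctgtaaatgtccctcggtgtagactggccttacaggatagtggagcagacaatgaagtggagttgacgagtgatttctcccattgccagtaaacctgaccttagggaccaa
Col4a1 4.8 kb upstream: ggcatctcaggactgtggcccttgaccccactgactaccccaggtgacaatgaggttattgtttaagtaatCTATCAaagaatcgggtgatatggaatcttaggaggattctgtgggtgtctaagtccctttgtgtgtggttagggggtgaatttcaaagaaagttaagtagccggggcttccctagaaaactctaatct
Col4a2 46.5 kb upstream: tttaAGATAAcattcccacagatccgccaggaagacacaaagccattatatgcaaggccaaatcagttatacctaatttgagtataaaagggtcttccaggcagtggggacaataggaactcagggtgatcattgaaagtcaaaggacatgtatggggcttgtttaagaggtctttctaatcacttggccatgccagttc
Sparc 1.8 kb downstream: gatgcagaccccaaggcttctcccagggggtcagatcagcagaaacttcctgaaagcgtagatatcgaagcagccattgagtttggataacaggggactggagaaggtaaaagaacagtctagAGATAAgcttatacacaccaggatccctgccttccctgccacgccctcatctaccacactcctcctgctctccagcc
Lamb1 5.6 kb downstream: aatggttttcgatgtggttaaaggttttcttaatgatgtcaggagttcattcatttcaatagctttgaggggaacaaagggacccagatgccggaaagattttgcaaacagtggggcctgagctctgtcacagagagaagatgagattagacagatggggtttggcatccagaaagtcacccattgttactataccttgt
Nid2 13.5 kb upstream: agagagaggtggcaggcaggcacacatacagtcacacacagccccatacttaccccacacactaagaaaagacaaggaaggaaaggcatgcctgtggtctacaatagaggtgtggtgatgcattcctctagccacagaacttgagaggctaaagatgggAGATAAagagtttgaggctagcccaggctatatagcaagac

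The Lamc1 window held 2 matches and those of Col4a1, Col4a2, Sparc and Nid2 held 1 each. The Lamb1 window held 0, although the whole 963 bp region held 3. Upstream and downstream are given from the gene's TSS to the centre of the region.

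More of the member regions had a peak in every induced library than in either 0 h library. The 0 h libraries had peaks in 53 and 55 of the 137 regions. The counts were 58 and 63 at 2 h, 63 and 65 at 4 h, 68 and 68 at 8 h, 74 and 77 at 16 h, 70 and 78 at 24 h, and 69 and 71 at 48 h. The 0 h mean was 54 ± 1.41 (SD, n = 2), the 16 h mean 75.5 ± 2.12 (SD, n = 2) and the 48 h mean 70 ± 1.41 (SD, n = 2). As a share, the members went from 39.4% at 0 h to 51.1% at 48 h, while all 84402 assigned regions went from 47.1% to 47.5%, and both shares were highest at 16 h, at 55.1% and 52.5%. With the 50000 highest peaks per library the highest mean of the members moved from 16 h to 48 h, at 65.5. Since the members were chosen with earlier results of these data known, these totals carry no test. Over the member regions, the Jaccard index between libraries, the regions called in both divided by those called in either, had a median of 0.779 for the 7 pairs of the same time (range 0.714 to 0.818) and of 0.514 for the 84 pairs of different times (range 0.278 to 0.797), so the ranges overlapped.

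**Figure D1:**
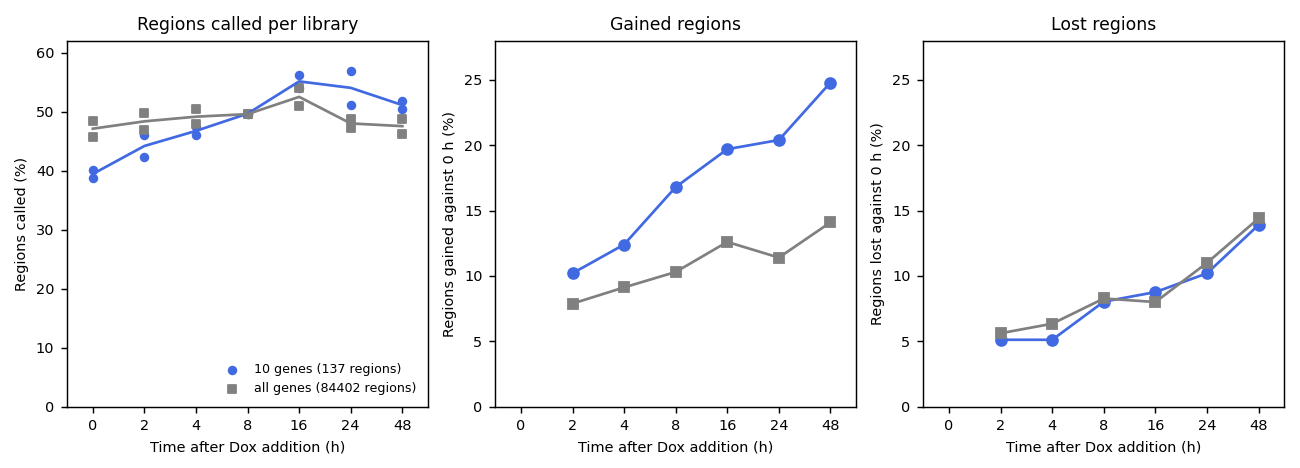
Share of regions with a peak in each library (left; points are libraries, lines the means of 2), and share gained (middle) or lost (right) against 0 h, by hours after Dox addition, for the 137 regions of the 10 genes (blue circles) and all 84402 assigned regions (grey squares). The blue gained line ends at 24.8% and the grey at 14.1%, whereas the lost lines end at 13.9% and 14.4%.

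By this rule more of these regions were gained at each later time point than at the one before. The order of 16 and 24 h depended on the settings, for which the member counts are given without a share over all regions. Gains there were 21 and 18 with starts within 20 kb, and 28 and 27 with at least 50% of a region covered. They were 26 and 28 with the 50000 highest peaks, and 39 and 43 with a call in at least 1 library. At 2 h, 14 of the 137 regions were gained, or 10.2%, against 7.88% of all assigned regions, and at 4 h 17 were, or 12.4% against 9.12%. At 8 h the count was 23, or 16.8% against 10.3%, at 16 h it was 27, or 19.7% against 12.6%, and at 24 h it was 28, or 20.4% against 11.4%. At 48 h 34 regions were gained, or 24.8% of the members against 14.1% of all assigned regions. Losses numbered 7 at 2 h (5.11% against 5.61%), 7 at 4 h (5.11% against 6.34%), 11 at 8 h (8.03% against 8.27%), 12 at 16 h (8.76% against 8.0%), 14 at 24 h (10.2% against 11.0%) and 19 at 48 h (13.9% against 14.4%). The loss counts moved with the rule. Without 0 h replicate 1 they were 13 at 2 h (9.49% against 9.87% of all assigned regions), 14 at 4 h (10.2% against 10.7%) and 17 at 8 h (12.4% against 12.4%). With a call in at least 1 library they were 15 at 4 h (10.9% against 13.7%) and 30 at 48 h (21.9% against 22.7%). A further 23 were shared by 0 and 48 h, 16.8% against 23.4%, and 19 of those had a peak in all 14 libraries. No exact two-sided test of 2 libraries against 2 can go below p = 0.333, so gained and lost regions carry no p. The peak lists give no sequencing depth, and a region without a peak was not called there, which is not the same as closed.

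A trend over all 14 libraries could be tested for the 91 member regions called in 2 to 12 libraries, using the ranked collection times of the calling libraries in a two-sided exact permutation test, adjusted by the Benjamini-Hochberg method over 79559 regions of the series. Of the 91, 19 rose with time (20.9%, against 12.1% of all tested) and 10 fell (11.0%, against 12.3%). All 19 were among the 34 gained regions, 3 each at Lama1, Lamb1, Col4a1 and Sparc, 2 each at Col4a2, Nid2 and Hspg2, and 1 at Lama5. The 10 that fell were all lost regions, 4 at Lamc1, 2 at Nid1 and 1 each at Lama1, Lamb1, Col4a2 and Sparc. This overlap is not separate evidence, since classes and trend use the same calls. Over all assigned regions, too, all 6367 that rose were gained and all 5410 that fell were lost. With so few libraries the exact test takes few values: a region called in both libraries of every time from 2 h on reached p = 0.0220, adjusted 0.0541, so the earliest stable gains could not pass. The same holds for every region called in exactly 2 or exactly 12 libraries, since 0.0220 is the smallest p either allows, and 0 of 5302 regions with 12 calls passed. With each library left out in turn, 17 to 25 regions rose and 3 to 12 fell, the lowest falling count coming without either 8 h or either 16 h library.

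**Figure D2:**
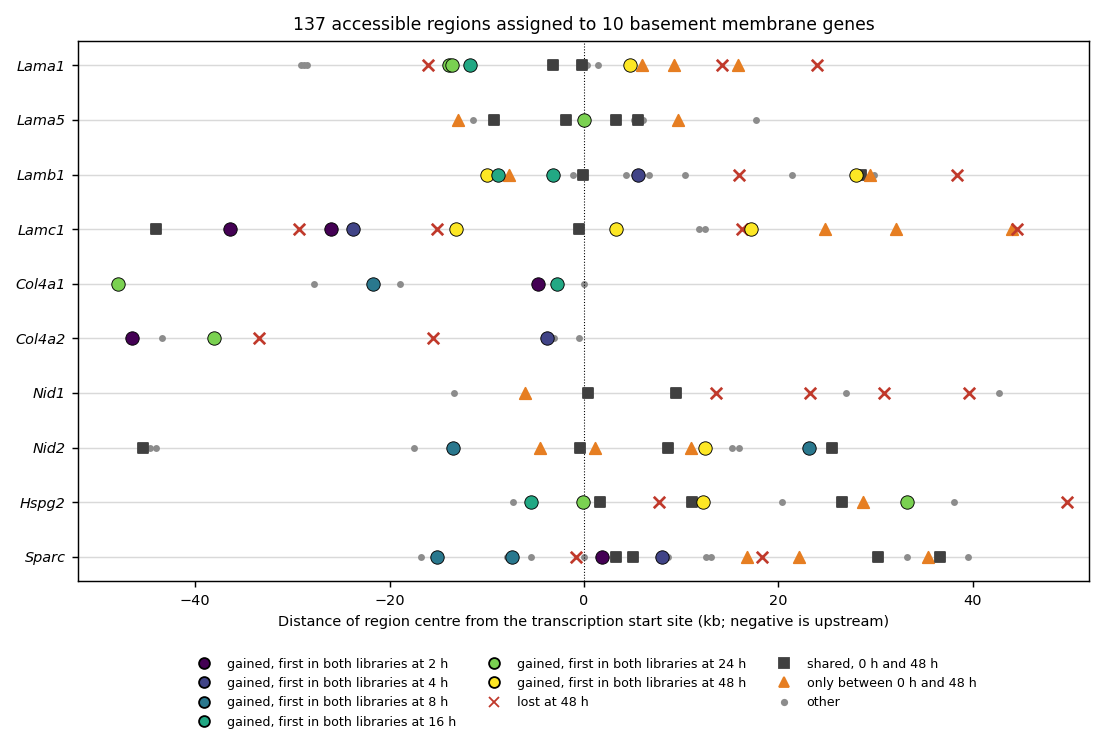
Position of the 137 regions relative to the TSS of their gene (x axis, kb, negative upstream), 1 row per gene. Filled circles are the 34 gained regions, coloured by the time at which both libraries first had a peak, crosses the 19 lost, squares the 23 shared, triangles the 18 called only between 0 and 48 h and small dots the other 43; the early circles sit upstream of Lamc1, Col4a1 and Col4a2 and just inside Sparc and Lamb1.

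The 34 regions gained at 48 h did not open together. In 5, both libraries first had a peak at 2 h, in 4 it was at 4 h, in 5 at 8 h, in 5 at 16 h, in 7 at 24 h and in 8 only at 48 h. At 2 h, then, 14.7% of the eventual gains already had both peaks, against 11.3% of all 11910 gained regions in the series, and the shares were 26.5% against 21.2% at 4 h, 41.2% against 30.8% at 8 h, 50.0% against 44.0% at 16 h and 73.5% against 56.3% at 24 h. By gene, the earliest gain kept to 48 h came at 2 h for Lamc1, Col4a1, Col4a2 and Sparc, at 4 h for Lamb1, at 8 h for Nid2, at 16 h for Lama1 and Hspg2, and at 24 h for Lama5. Nid1 had none.

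**Figure D3:**
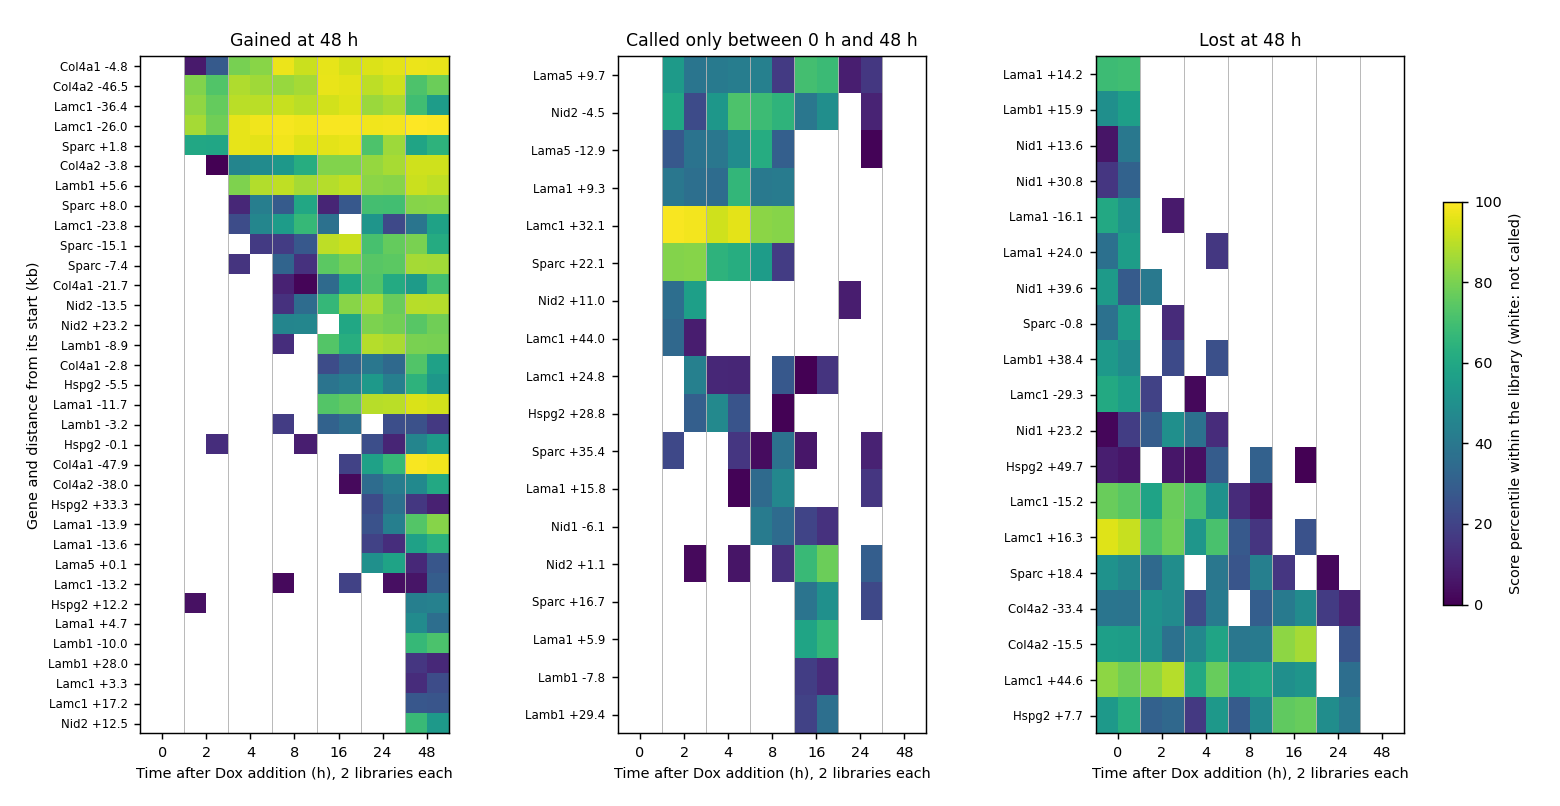
Each row is a member region, named by gene and distance from the TSS in kb, and each column a library, in pairs by hours after Dox addition; colour is the percentile of the region's highest score among all peaks of that library and white means no peak. The 34 gained regions (left) fill from 5 rows at 2 h, the 18 in the middle panel have peaks only between 0 and 48 h, and the 19 lost regions (right) empty from the top.

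The strength of a peak is given below as its score percentile, the rank of the region's highest score among all peaks of the same library, where 100 is the strongest. The scale of the deposited score is not stated, and percentiles of different libraries are set side by side only as ranks.

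Lamc1 encodes laminin γ1, the γ chain of most laminin trimers. It had 17 regions, with 6 gained, 4 lost and 2 shared. The region 26.0 kb upstream (chr1:153358504-153359151) had no peak at 0 h. Its percentiles were 86.6 and 78.2 at 2 h, 96.4 and 97.7 at 4 h, 98.7 and 97.9 at 8 h, 99.1 and 99.1 at 16 h, 98.0 and 98.1 at 24 h, and 99.6 and 99.6 at 48 h. It therefore had a peak in all 12 induced libraries and ended among the strongest peaks of both 48 h libraries. Another region 36.4 kb upstream (chr1:153368944-153369515) was also called in all 12, but its percentiles went from 83.4 and 76.4 at 2 h to 93.1 and 95.0 at 16 h and back to 69.2 and 55.4 at 48 h. A region 23.8 kb upstream, with 5 motif matches in its window, had peaks in both libraries of every time from 4 h except 16 h, where 1 library had one. Still further out, a region 44.0 kb upstream was among the strongest peaks of every library, with percentiles of 96.9 to 99.9, and it was open before induction.

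The Lamc1 locus also lost regions in between its gains. The region 15.2 kb upstream had percentiles of 77.1 and 74.5 at 0 h, 58.0 and 77.0 at 2 h, 71.0 and 51.1 at 4 h, and 12.4 and 5.8 at 8 h, and no peak afterwards. That in the intron 16.3 kb downstream went from 95.3 and 91.5 at 0 h to 27.9 and 15.4 at 8 h, with 1 more peak, at 25.0, in a 16 h library. Both fell in the trend test (adjusted p = 0.0130, exact permutation test). The intronic region 32.1 kb downstream (chr1:153300331-153300959) behaved differently from either: it had no peak at 0 h, percentiles of 99.0 and 98.2 at 2 h, 93.0 and 96.1 at 4 h, and 82.5 and 81.9 at 8 h, and none from 16 h on. The gene's total was 6 and 8 at 0 h, 11 or 12 in every library from 2 to 8 h, 8 and 9 at 16 h, 6 and 8 at 24 h, and 9 and 9 at 48 h. The totals of the 24 h pair were thus those of the 0 h pair, but 3 regions were gained and 3 lost at 24 h.

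Lamb1 encodes laminin β1. Of its 17 regions, 5 were gained, 2 lost and 2 shared. The intronic region 5.6 kb downstream (chr12:31270352-31271314) had no peak at 0 or 2 h, percentiles of 80.8 and 88.7 at 4 h, and then 81.8 to 91.9 in every later library, with 91.9 and 90.3 at 48 h. It rose in the trend test (adjusted p = 0.0130, exact). The region 8.9 kb upstream (chr12:31255881-31256871) had a peak in only 1 of the 8 h libraries and then percentiles of 73.1 and 62.7 at 16 h, 88.8 and 87.3 at 24 h, and 80.0 and 79.4 at 48 h. It rose as well (adjusted p = 0.0130, exact), as did the region 3.2 kb upstream (adjusted p = 0.0451, exact). The promoter peak was present throughout but its rank moved, from percentiles of 18.1 and 26.1 at 0 h to 77.3 and 79.0 at 2 h, 37.6 and 48.8 at 8 h, and 74.7 and 78.3 at 48 h.

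Lama1 encodes laminin α1, and of its 17 regions 4 were gained, 3 lost and 2 shared. The promoter had a peak in all 14 libraries. The gains came late and clustered upstream. The region 11.7 kb upstream (chr17:67685230-67685912) had no peak in any of the 8 libraries up to 8 h, percentiles of 73.1 and 75.6 at 16 h, 89.3 and 89.8 at 24 h, and 94.2 and 93.1 at 48 h. The regions 13.9 and 13.6 kb upstream were called from 24 h. At 13.9 kb the percentiles were 25.2 and 43.0 at 24 h and 73.2 and 81.7 at 48 h. All 3 rose in the trend test (adjusted p = 0.0130, exact) and each held 1 motif match. The intronic region 4.7 kb downstream was called at 48 h only. Of the losses, the region 16.1 kb upstream had percentiles of 60.5 and 51.8 at 0 h and 1 more peak, at 7.2, in a 2 h library.

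Lama5 encodes laminin α5, the α chain most widespread in later epithelia. It had 11 regions, of which 1 was gained, 0 lost and 4 shared. The gained region covered the TSS (chr2:180225551-180226066, in the first exon) and had no peak in the 10 libraries up to 16 h, percentiles of 50.3 and 57.9 at 24 h, and 11.6 and 26.6 at 48 h. It rose in the trend test (adjusted p = 0.0130, exact) and held no motif match. A region 1.8 kb upstream had peaks in all 14 libraries at percentiles of 62.7 to 96.7, with 93.4 and 91.1 at 0 h. The region 9.7 kb downstream, in an intron, showed peaks in all 10 libraries from 2 to 24 h and in none at 0 or 48 h. The gene's total was 6 and 7 at 0 h, 9 and 9 at 24 h, and 5 and 6 at 48 h, so its 0 and 48 h libraries overlapped.

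**Figure D4:**
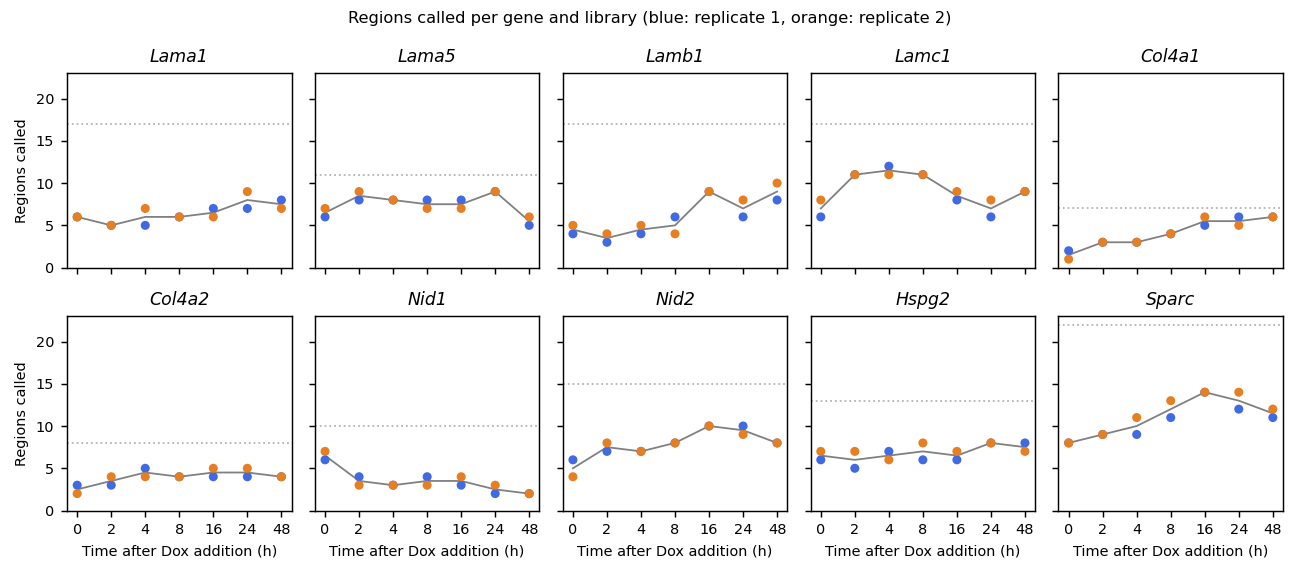
Number of regions with a peak per gene in each library, by hours after Dox addition; blue and orange points are the libraries of replicate 1 and replicate 2, the grey line their mean and the dotted line the number of regions assigned to the gene. Col4a1 went from 1 or 2 regions at 0 h to 6 at 48 h, and Nid1 from 6 or 7 to 2.

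Col4a1 and Col4a2 encode the 2 chains of the collagen IV trimer that embryonic basement membranes use. They lie head to head on chromosome 8 with starts 21 bp apart, so a region inside either gene is assigned to the other, and they are best read as 1 locus. The locus had 15 regions, of which 7 were gained, 2 lost and 0 shared between 0 and 48 h. It had peaks in 5 and 3 regions at 0 h, 6 and 7 at 2 h, 8 and 7 at 4 h, 8 and 8 at 8 h, 9 and 11 at 16 h, and 10 and 10 at both 24 and 48 h. Every induced library lay above both 0 h libraries.

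On the Col4a2 side, the intronic region 4.8 kb from the Col4a1 start (chr8:11317270-11317890) had no peak at 0 h. Its percentiles were 7.4 and 28.5 at 2 h, 79.4 and 82.1 at 4 h, 97.0 and 91.9 at 8 h, 96.1 and 93.7 at 16 h, 94.8 and 95.8 at 24 h, and 97.1 and 96.8 at 48 h. It was weak when first called and among the strongest peaks from 8 h on. Nearer the start, the region at 2.8 kb (chr8:11315297-11315892) was called from 16 h. Further into the gene, the region at 21.7 kb (chr8:11334234-11334895) was called from 8 h. That at 47.9 kb (chr8:11360308-11361167) was called in 1 library at 16 h and in both from 24 h. The last went from percentiles of 57.3 and 66.8 at 24 h to 99.0 and 97.7 at 48 h. These 3 rose in the trend test (adjusted p = 0.0130, exact).

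On the Col4a1 side, the intronic region 46.5 kb from the Col4a2 start (chr8:11265953-11266753) was called in all 12 induced libraries and neither 0 h library. Its percentiles were 81.2 and 73.0 at 2 h, 96.5 and 95.8 at 16 h, and 72.1 and 77.6 at 48 h. The region at 3.8 kb (chr8:11308465-11309632) had a single peak at 2 h, at percentile 0.3, then 45.6 and 48.2 at 4 h, 81.1 and 81.0 at 16 h, and 92.7 and 92.9 at 48 h, and it rose (adjusted p = 0.0451, exact). The region at 38.0 kb was called in both libraries from 24 h and also rose (adjusted p = 0.0130, exact). The shared promoter, 1 peak over both starts, went the other way in rank. Its percentiles were 53.8 and 47.1 at 0 h, 23.3 and 25.0 at 4 h, 7.5 and 5.1 at 16 h, 10.4 in 1 of the 24 h libraries and 6.8 in 1 of the 48 h libraries. It was called in all 10 libraries up to 16 h and in 2 of the 4 later ones, so it was neither gained nor lost. Like any region called in 12 libraries, it could not have passed the trend test. The 2 losses of the locus were also in introns of Col4a1. That 33.4 kb from the Col4a2 start was called in 11 libraries, among them both at 24 h, and its trend did not pass (adjusted p = 0.177, exact). That at 15.5 kb was called in all libraries up to 16 h and in 1 at 24 h, and it fell (adjusted p = 0.0451, exact).

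Nid1 and Nid2 encode the nidogens, the linkers between laminin and collagen IV, and 2 Nid1 regions fell in the trend test while 2 Nid2 regions rose. Nid1 had 10 regions with 0 gained, 4 lost and 2 shared, and its total went from 6 and 7 at 0 h to 4 and 3 at 2 h and 2 and 2 at 48 h. All 4 losses lay in the gene body, between 13.6 and 39.6 kb downstream. That at 23.2 kb (chr13:13460354-13461240) had percentiles of 1.7 and 18.1 at 0 h, 29.6 and 50.0 at 2 h, and 37.4 and 12.8 at 4 h, with no later peak, and it fell (adjusted p = 0.0130, exact), as did that at 39.6 kb (adjusted p = 0.0451, exact). The regions at 13.6 and 30.8 kb had peaks at 0 h only. The Nid1 promoter and an intronic region 9.5 kb downstream had peaks in all 14 libraries.

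Nid2 had 15 regions with 3 gained, 0 lost and 4 shared, and its total went from 6 and 4 at 0 h to 10 and 10 at 16 h and 8 and 8 at 48 h. The region 13.5 kb upstream (chr14:19737561-19738029) had no peak up to 4 h, percentiles of 14.4 and 35.3 at 8 h, 66.8 and 82.2 at 16 h, 87.1 and 77.1 at 24 h, and 89.2 and 89.0 at 48 h. It rose (adjusted p = 0.0130, exact), as did an intronic region 23.2 kb downstream (adjusted p = 0.0210, exact). A region 8.7 kb downstream (chr14:19759688-19760238), in an intron and with 3 motif matches, had peaks in all 14 libraries, so it entered no count of gains. Its percentiles were nevertheless 6.5 and 19.9 at 0 h, 57.0 and 56.1 at 2 h, 89.1 and 90.5 at 4 h, and 95.9 and 90.0 at 48 h. A weak peak before induction had become a strong one by 4 h. The difference between Nid1 and Nid2 was not tested.

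Hspg2 encodes perlecan, a heparan sulphate proteoglycan. Of its 13 regions 4 were gained, 2 lost and 3 shared. The region over its annotated start (chr4:137468454-137468793) was called in 1 library at 2 h, 1 at 8 h and both at 24 and 48 h, with percentiles of 45.5 and 54.4 at 48 h. Its trend did not pass (adjusted p = 0.103, exact). The start was not the gene's main open site, since a region 1.6 kb downstream had peaks in all 14 libraries at percentiles of 90.9 to 99.5. The region 5.5 kb upstream (chr4:137463144-137463455) was called in both libraries from 16 h, at percentiles of 38.7 to 64.5, and rose (adjusted p = 0.0130, exact), as did the intronic region 33.3 kb downstream, called from 24 h. The gene's total varied between 5 and 8 over all libraries, and the 0 and 48 h libraries overlapped.

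Sparc had the most regions, 22, of which 4 were gained, 2 lost and 4 shared. The region 1.8 kb downstream of the GENCODE start (chr11:55421059-55421679) had no peak at 0 h. Its percentiles were 59.9 and 59.3 at 2 h, 96.1 and 95.9 at 4 h, 98.0 and 95.1 at 8 h, 95.8 and 96.7 at 16 h, 72.2 and 85.2 at 24 h, and 58.5 and 64.5 at 48 h. It ranked highest between 4 and 16 h and was close to its 2 h rank at 48 h. The other gains were called later and shared no single course. The region 8.0 kb downstream was called from 4 h and those 7.4 and 15.1 kb upstream from 8 h. At 7.4 kb the percentiles were 32.3 and 14.2 at 8 h, 74.9 and 79.1 at 16 h, and 86.7 and 86.2 at 48 h. At 15.1 kb they were 17.6 and 27.6 at 8 h, 89.9 and 92.1 at 16 h, and 79.7 and 61.7 at 48 h. At 8.0 kb they were 28.8 and 59.9 at 8 h, 10.2 and 27.4 at 16 h, and 81.8 and 82.4 at 48 h. These 3 regions rose in the trend test (adjusted p = 0.0130, exact). The gene's total was 8 and 8 at 0 h, 14 and 14 at 16 h, and 11 and 12 at 48 h.

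At the Sparc start used here only 1 library, at 24 h, had a peak. RefSeq places the start 3103 bp further into the gene, and the region over that position, 3.3 kb downstream, had peaks in all 14 libraries, at percentiles of 42.4 and 39.4 at 0 h, 13.1 and 3.5 at 4 h, and 84.2 and 77.5 at 48 h. The 1.8 kb region is thus inside the gene in GENCODE and upstream of its start in RefSeq. Of the 10 genes, 7 were found in the RefSeq table, with the same start for Lama5, Col4a1 and Col4a2 and starts 59, 51 and 34 bp away for Lamb1, Nid1 and Hspg2. No region covered the RefSeq start of Hspg2. Over the promoters as a whole, those of Lama1, Lamb1, Lamc1, Nid1 and Nid2 had peaks in all 14 libraries, while the regions over the GENCODE starts of Lama5 and Hspg2 were gained. Lama5 also had a region 1.8 kb upstream, and Hspg2 one 1.6 kb downstream, with peaks in all 14 libraries.

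Not all early openings were kept. Of the 14 regions gained at 2 h, 5 were still gained at 48 h (35.7%, against 20.2% of the 6649 regions gained at 2 h in the series) and 8 had no peak in either 48 h library (57.1% against 74.0%). Of the 28 gained at 24 h, 25 were still gained at 48 h (89.3% against 69.5%). Over the whole course, 18 member regions had peaks in both libraries of some time between but in no library of 0 or 48 h, 13.1% against 12.4% of all assigned regions, close to the series. Of the 18, 5 were called only within 2 to 8 h, among them Lamc1 32.1 kb downstream, Sparc 22.1 kb downstream and Lama1 9.3 kb downstream, each in all 6 libraries of those times. The Sparc region (chr11:55400893-55401322) had percentiles of 81.6 and 81.8 at 2 h and 55.3 and 17.6 at 8 h. A different 5 were called in the pair of 16 h libraries and in no other complete pair, including Nid2 1.1 kb downstream, at 67.8 and 77.7, and Lama1 5.9 kb downstream, at 58.3 and 66.3. Only 1 of the 18, at Lama5, had both peaks at 24 h.

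Loss was also spread out. Of the 19 regions lost at 48 h, 5 had no peak in either 2 h library, and this count was 7, 11, 12 and 14 for the libraries of 4, 8, 16 and 24 h. The late losses included Lamc1 44.6 kb downstream, called in all libraries up to 16 h and in 1 at 24 h, and Hspg2 7.7 kb downstream, called in all 12 libraries up to 24 h. With 12 calls the latter could not have passed the trend test.

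Of the 34 gained regions 2 had their centre within 1 kb of a TSS, 5.88% against 11.3% of all gained regions in the series, and of the 23 shared regions 5 did, 21.7% against 49.7%. Of the gained regions 22 lay upstream of the start, 17 were in introns, 15 between genes, and 1 each in a coding exon and a UTR exon. The 7 gains of the collagen IV locus count as upstream, although each lies in an intron of the neighbouring gene. The 19 losses were mostly inside genes, with 13 in introns, 2 in coding exons and 4 between genes. These places were not counted over the series. Median widths were 551 bp for gained, 538 bp for lost and 786 bp for shared member regions. Over all assigned regions of these classes they were 469, 577 and 767 bp.

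At least 1 match in the central 200 bp was found in 21 of 34 gained regions (61.8%, against 54.4% of all gained regions in the series), in 1 of 19 lost regions (5.26% against 20.9%), in 7 of 23 shared regions (30.4% against 16.4%), and in 7 of the 18 called only in between (38.9% against 50.9%). Over all 137 members it was 49, or 35.8%, against 32.2% of the 84402. For 2 or more matches the gained members were below the series, with 4 of 34 (11.8% against 23.7%). Such windows made up 0 of 19 lost (against 2.80%) and 2 of 23 shared regions (8.70% against 2.51%). They were 3 of the 18 called only in between (16.7% against 19.7%) and 12 of all 137 (8.76% against 10.0%). By the time of first opening, 8 of the 9 gained regions called by 4 h had a match, against 66.8% in the series. It was 4 of 5 first called at 8 h (59.4% in the series), 2 of 5 at 16 h (54.5%), 5 of 7 at 24 h (40.4%) and 2 of 8 at 48 h (50.4%), with no steady order in time. The 1 early region without a match in its window was that of Lamb1 shown above. Over the whole region rather than its centre, 26 gained regions (76.5% against 70.7% in the series), 6 lost (31.6% against 51.5%) and 16 shared (69.6% against 49.2%) had a match, so the lost and shared counts depend on the window. These counts describe letters in the reference and carry no test.

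For comparison, 35 other genes of the basement membrane and its assembly had 240 regions. Of these, 43 were gained (17.9%) and 40 lost (16.7%) at 48 h, against 14.1% and 14.4% of all assigned regions. In the trend test 21 of 160 rose and 22 fell, where 12.1% and 12.3% of all tested regions did. Among the other laminin subunits 4 of 44 regions were gained (9.09%) and 11 lost (25%). The minor collagen IV chains Col4a3, Col4a4 and Col4a5 had 1 region each, of which that of Col4a4 was gained, and Col4a6 had 0. Other basement membrane proteins had 11 of 77 gained (14.3%) and 18 lost (23.4%), with 8 of the losses at Col18a1, which encodes collagen XVIII. The receptors had 7 of 58 gained (12.1%) and 6 lost (10.3%), 4 of the gains at Itga6, an integrin laminin receptor subunit. Genes for collagen processing enzymes and chaperones had 20 of 58 gained (34.5%) and 5 lost (8.62%), and of 39 tested 12 rose and 2 fell. Of these, Plod2, a lysyl hydroxylase of collagen, had 8 regions, of which 6 were gained, and all 6 rose. At 2 h none of the processing genes' regions was gained (0 of 58, against 7.88% of all assigned regions).

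Over all assigned regions 14.1% were gained and 14.4% lost at 48 h. As a check of the labels, the primitive endoderm markers Gata4, Sox17, Sox7, Pdgfra and Foxa2 had 70 regions. Of these, 33 were gained (47.1%) and 5 lost (7.14%) at 48 h. The epiblast and stem cell markers Nanog, Sox2, Esrrb, Klf4 and Pou5f1 had 68, of which 13 were gained (19.1%) and 11 lost (16.2%). The share lost at this second list was thus near that of the series. The gains at this second list included 6 of 16 regions at Klf4 and 4 of 18 at Nanog. The part of remaining undifferentiated cells in these values was not tested.

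The genes whose number of called regions followed that of the 10 genes together most closely over the 14 libraries, among 7131 protein-coding genes with at least 5 regions, were Peg10 (r = 0.943), Lrpap1 (r = 0.942), Ap1s3 (r = 0.937), Slc12a7 (r = 0.933) and Gm9844 (r = 0.932). Peg10 is an imprinted gene derived from a retrotransposon and Lrpap1 encodes a chaperone of LDL receptor family proteins. Lrpap1 had 10 regions, with a mean of 1.5 called at 0 h and 8 at 48 h. Pearson's r is a description here, since the points come in pairs by time and share each library's peak number.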

How the data were processed

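Peaks were called by the authors with the ENCODE ATAC-seq pipeline in each of the 14 libraries separately, at an irreproducible discovery rate of 0.05 over pseudoreplicates, and filtered against a blacklist. Builds given in the submitters' processing notes were mm10 and GRCm38. The deposited lists carry 1 unnamed value per peak, taken as a score of the authors with no stated scale, to rank peaks within a library only. They hold no reads, so depth and its intervals are not given, and the study's test on read counts was not run.

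Peaks were merged and assigned by nearest TSS within 50 kb, with coordinates counted from 1, in Python 3.11.15 with numpy 2.4.6, pandas 2.3.3 and scipy 1.17.1. A peak covering 1 bp or more of a region counted as a call. The trend test was checked on simulated data. Genes, lists and tests were chosen with earlier results of these data known. Named regions were, per gene, the region at the TSS, up to 2 gained at 48 h (earliest first), 1 lost and 1 called only in between, and others are named where a count or a pattern turned on them, after their values were seen. Alternatives covered peak rank, coverage, merging, distance, call rule, motif window, a replicate block, the 0 h libraries and each library left out. Sequences and second starts came from RefSeq, GRCm38.p6.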

Additional observations from a re-analysis of the deposited data

How the results depend on the processing

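Of 103 recalculations under other settings, counting those that did not leave out a library, 66 stayed within 1.5 times the count or 1 SD of the mean and 37 moved. With a call in at least 1 library in place of both, losses were 16, 15, 19, 22 and 30 for 2, 4, 8, 24 and 48 h, and gains for 24 h were 43. With starts within 20 kb only, which leaves fewer regions, gains were 8, 9, 14, 21 and 18 for 2, 4, 8, 16 and 24 h. Losses were then 4, 5, 6, 7 and 10 for 2, 8, 16, 24 and 48 h. Keeping the 50000 highest peaks of each library, 34 rose and 17 fell, and the mean regions called per library were 47.5, 55, 54.5, 57, 62, 63.5 and 65.5 from 0 to 48 h. With at least 50% of a region covered they were 50.5, 53.5, 58, 59.5, 69, 63 and 61. Under both settings each induced mean stayed above 0 h. Counting a first peak in either library, 8 gained regions opened at 2 h and 4 at 24 h. With matches taken from whole regions, 6 lost and 16 shared regions had one. The correlation of deviations by replicate number was -0.0152 to 0.0124 over 21 pairs of time points. Replicate 2 nevertheless had the longer peak list at every time point, with 60483 against 56924 peaks at 0 h. With the replicate number as a block 5 regions fell and 17 rose. Without the 0 h libraries 6 fell. Why the trend counts moved was not tested. The trend counts, the gains and the counts with starts within 20 kb come without a share over all regions. Under those settings a shift of the members cannot be told from one of the whole series.

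With 1 library left out, so that 1 library stood for its time point, gains were 16 to 19 for 2 h, 19 to 22 for 4 h, 26 to 28 for 8 h, 32 to 34 for 16 h, 31 to 40 for 24 h and 37 to 39 for 48 h. Losses were 9 to 13 for 2 h, 8 to 14 for 4 h, 11 to 17 for 8 h, 13 to 16 for 16 h, 16 to 19 for 24 h and 20 to 25 for 48 h. Losses were 13, 14 and 17 at 2, 4 and 8 h without 0 h replicate 1, 11 at 2 h without 2 h replicate 2 and 11 at 4 h without 4 h replicate 2. Rising regions numbered 17 to 25 and falling ones 3 to 12. The falling count was 3 without either 8 h or either 16 h library, 4 without either 4 h library, and 6 without 0 h replicate 1 or 24 h replicate 1. Depth is unknown from peak lists and limits every missing call.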
